A study of Mus musculus with 12 samples.

Results

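The genes described here are the serpins, the family of serine protease inhibitors, as measured in the proximal epididymis of the mouse. Members were all genes whose symbol starts with Serpin in GENCODE mouse release 21, pseudogenes with -ps names left out, with 10 or more counts in at least 2 of the 12 libraries. Of 63 such symbols, 24 passed and form the family below, out of 55536 genes in the count tables. All 24 were among the 19213 genes tested. Of the other 39 symbols, 21 had no count in any library, and the highest count of any was 12.

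RNA was sequenced from segments 1, 2 and 3 of the epididymis, segment 1 lying nearest the testis, in wild-type (WT) mice. Control tissue was not ligated. For ligated tissue, the efferent ducts were tied with suture where they reach the head of the epididymis. These ducts carry sperm and fluid from the testis. The 6 groups are control segments 1, 2 and 3 and ligated segments 1, 2 and 3, each with 2 libraries, 1 in sequencing batch 3017 and 1 in batch 3097, and each library is a pool of 2 mice. The sources used here give neither the mice's age nor the time between ligation and collection. They also do not state whether the segments, or ligated and control tissue, came from the same mice. The p-values measure the spread between pools.

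A serpin offers a protease a flexible loop as bait. When the protease cuts it, the serpin changes shape and traps the enzyme in a covalent complex, which receptors of the LDL receptor family can remove. Clade A and F serpins are mostly secreted, clade B serpins mostly stay inside the cell, and a few members, such as Serpinf1, Serpinh1 and maspin (Serpinb5), do not inhibit proteases. In the epididymis, secreted serpins belong to the luminal fluid in which sperm mature, where proteases process sperm surface proteins.

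Libraries held 30.5 to 42.3 M counts, and levels are counts scaled to library size by TMM (CPM), given as mean ± SD of n = 2 libraries unless each library is named. The floor of 3 counts was worth 0.0700 to 0.103 CPM, and covers counting error only. The pair of libraries that differed most was that of control segment 2, where chi-square over its degrees of freedom was 116, against 22.6 to 80.1 elsewhere. Markers of principal cells, the main secretory cells of the duct, summed to 46493 to 95325 CPM in every library, and those of liver and plasma proteins to at most 2.50 CPM. Germ cell and sperm markers summed to 10.1 to 11.8 CPM in control segment 1, to 104 to 202 CPM in control segments 2 and 3, and to 0.308 to 0.886 CPM in the 6 ligated libraries.

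Of the family, 16 members had at least 10 counts in all 12 libraries and 8 in fewer. Clade A gave 8 members of 25 annotated symbols, clade B 8 of 27, and the other clades the remaining 8, whereas the single clade D gene, Serpind1, was no member. For 8 members the highest group mean was below 2 CPM. By group means, 12 members were highest in ligated segment 1, 6 in control segment 2, 4 in ligated segment 3, 1 each in ligated segment 2 and control segment 1, and 0 in control segment 3. Control segment 1 held the lowest mean for 15 members. Shares of all genes by highest or lowest group were not computed.

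A few genes held large shares of the family's reads. Summed over the 24 members, the libraries of batches 3017 and 3097 held 322 and 449 CPM in control segment 1, 1125 and 833 CPM in control segment 2, and 793 and 1038 CPM in control segment 3. After ligation the sums were 613 and 624 CPM in segment 1, 1320 and 741 CPM in segment 2, and 2195 and 1081 CPM in segment 3. Serpinf2 took 59.2% and 61.2% of the family's reads in control segment 1 but 7.80% and 18.6% in ligated segment 3. Serpina1f took 0.443% and 0.961% in control segment 1 and 76.4% and 57.1% in ligated segment 3. Without these and Serpina16, the other members summed to 130 to 327 CPM, lowest in control segment 1, where the libraries held 130 and 169 CPM. The shares are of reads, which longer transcripts yield more of.

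**Figure D1:**
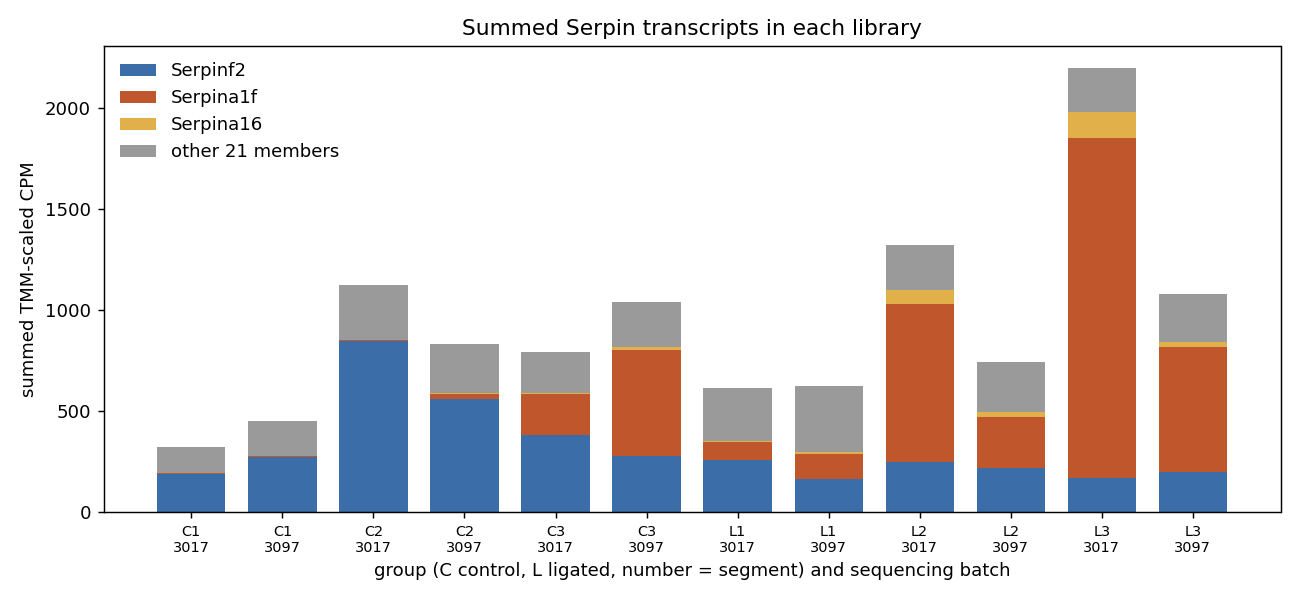
Summed TMM-scaled CPM of the 24 Serpin members (vertical axis, linear from 0) in each of the 12 libraries (horizontal axis, group and sequencing batch), stacked by gene. Serpinf2 is the largest block in control segments 1 and 2, Serpina1f is the largest in ligated segment 3, and the 21 other members together stay between 130 and 327 CPM.

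Per kilobase of exon, Serpinf2 led in control segment 1 with a mean of 100.2 CPM per kb, followed by Serpinb9 with 10.7 and Serpinh1 with 10.002 CPM per kb. It also led in control segment 2 with 302 CPM per kb. In control segment 3 the mean levels per length were 142 CPM per kb for Serpinf2 and 114 CPM per kb for Serpina1f. In that group and in ligated segment 2 the libraries of the 2 batches gave Serpinf2 and Serpina1f in opposite order, so these neighbours did not differ beyond their spread. In ligated segment 3 the mean of Serpina1f was 360.02 CPM per kb against 80.1 for Serpinf2 and 49.5 for Serpina16, with Serpina1f above Serpinf2 in both libraries.

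Among members counted in every library, the genes with the widest range of levels were Serpina1f, an alpha-1-antitrypsin paralog, and its neighbour Serpina16, another clade A gene. Both lie on the minus strand of chromosome 12 in GRCm38, Serpina1f (ENSMUSG00000021081) at chr12:103688044-103695529 and Serpina16 (ENSMUSG00000071179) at chr12:103668808-103676139, with 11904 bp between them. Serpinf2 (ENSMUSG00000038224) encodes alpha-2-antiplasmin, the main inhibitor of plasmin, and lies at chr11:75431732-75439591 on the minus strand, 9.03 kb from Serpinf1. The windows around the start sites of these 3 genes, from 250 bases before to 50 bases after the start in RefSeq's GRCm38.p6 table, are shown because Serpina1f and Serpina16 had that widest range and Serpinf2 was the member called in segment 2. Each is written 5′ to 3′ along the gene, with matches to the motifs searched in capitals. Serpina1f is chr12:103695480-103695779, Serpina16 is chr12:103676713-103677012, and Serpinf2 is chr11:75439452-75439751, all on the minus strand.
Serpina1f: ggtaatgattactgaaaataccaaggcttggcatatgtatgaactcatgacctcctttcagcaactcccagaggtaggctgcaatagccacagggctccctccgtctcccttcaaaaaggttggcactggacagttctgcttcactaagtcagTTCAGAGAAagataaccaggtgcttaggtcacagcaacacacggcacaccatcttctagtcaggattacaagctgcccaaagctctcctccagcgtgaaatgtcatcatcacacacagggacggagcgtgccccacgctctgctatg
Serpina16: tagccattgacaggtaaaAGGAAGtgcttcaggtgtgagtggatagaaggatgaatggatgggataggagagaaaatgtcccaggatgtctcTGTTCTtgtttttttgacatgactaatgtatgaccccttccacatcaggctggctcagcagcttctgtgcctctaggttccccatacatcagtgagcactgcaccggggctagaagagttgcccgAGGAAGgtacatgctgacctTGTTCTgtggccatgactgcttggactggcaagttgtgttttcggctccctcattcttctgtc
Serpinf2: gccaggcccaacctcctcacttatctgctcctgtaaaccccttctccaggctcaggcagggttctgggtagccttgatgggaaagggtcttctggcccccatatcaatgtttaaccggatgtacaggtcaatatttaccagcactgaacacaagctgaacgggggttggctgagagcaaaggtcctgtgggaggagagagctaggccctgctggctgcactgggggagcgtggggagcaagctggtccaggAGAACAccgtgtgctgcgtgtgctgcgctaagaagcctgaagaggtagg
The motifs were the TATA box TATAAA, the androgen or glucocorticoid receptor core AGAACA, the ETS core AGGAAG and the STAT site TTCNNNGAA, each on both strands. Serpina1f held 1 match, TTCNNNGAA starting at -97. Serpina16 held AGAACA on the opposite strand, read as TGTTCT, at -158 and -13, and AGGAAG at -232 and -33. Serpinf2 held AGAACA at +2. The matches in the printed windows do not overlap each other. Over 32851 windows of 300 bases, TATAAA occurred in 13.6%, AGAACA in 19.0%, AGGAAG in 35.4% and TTCNNNGAA in 8.3%, and of the 20 members with a window, 2, 8, 13 and 5 held them in that order. The RefSeq start of Serpina16 lies 623 bp from the 5′ end annotated in GENCODE release 21, against 0 bp for Serpina1f and 90 bp for Serpinf2. A match describes these letters only.

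Serpina1f was higher in control segment 3 than in control segment 1, and in segment 1 it rose after ligation. Control libraries of batches 3017 and 3097 held 1.43 and 4.32 CPM in segment 1, 2.30 and 27.8 CPM in segment 2, and 201 and 527 CPM in segment 3. Ligated libraries held 88.8 and 121 CPM in segment 1, 781 and 248 CPM in segment 2, and 1677 and 617 CPM in segment 3. In each segment, both ligated libraries lay above both control libraries. The ligated segment 1 libraries lay above those of control segments 1 and 2 and below those of control segment 3.

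In segment 1 the level of Serpina1f went from 2.87 ± 2.05 to 105 ± 22.6 CPM with ligation, a log2 fold change of 5.26 ± 1.52 (SE; adjusted p = 0.0347, edgeR quasi-likelihood test), and the within-batch log2 ratios of CPM plus 0.5 were 5.54 and 4.65. In segments 2 and 3 the differences did not pass the test, at 5.41 ± 1.53 (adjusted p = 0.0901) and 1.87 ± 1.30 (adjusted p = 0.532). With DESeq2 that in segment 2 passed (5.54 ± 1.19, adjusted p = 9.5e-05) and that in segment 3 did not. Control segment 1 was lower than control segment 3 by a log2 fold change of -6.98 ± 1.62 (adjusted p = 0.0158), whereas segments 2 and 3 differed by -4.68 ± 1.43 (adjusted p = 0.157) and segments 1 and 2 by -2.31 ± 1.42 (adjusted p = 0.244). With DESeq2 the difference between control segments 2 and 3 passed (adjusted p = 0.00204). The pools of a group often disagreed: the higher library was 12.1 times the lower in control segment 2, 3.15 times in ligated segment 2, 3.03 times in control segment 1 and 1.36 times in ligated segment 1. Batch 3097 held the higher library in all control segments and in ligated segment 1, batch 3017 in ligated segments 2 and 3. The segment 1 call ended without either control library of segment 1 (adjusted p = 0.173 and 0.126), either ligated library of segment 1 (0.105 and 0.0979), either control library of segment 3 (0.0566 and 0.0564) or the low-count filter (0.0664). The call between control segments 1 and 3 ended without either library of control segment 1 (0.102 and 0.0786) and without that of batch 3097 in control segment 3 (0.0557).

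Serpina16 had a like order of levels at a lower level. It stood at 0.642 ± 0.483, 1.54 ± 1.88 and 9.24 ± 5.32 CPM in control segments 1, 2 and 3 and at 7.93 ± 2.35, 48.7 ± 31.3 and 78.3 ± 77.1 CPM in the ligated ones. The lowest library was 0.206 CPM, in control segment 2 of batch 3017, and the highest 133 CPM, in ligated segment 3 of the same batch. Both ligated libraries were above both control libraries in each segment, but the spread was wide and the ligation contrasts missed the threshold, at 3.67 ± 1.59 (adjusted p = 0.111), 4.93 ± 1.46 (adjusted p = 0.0996) and 3.04 ± 1.27 (adjusted p = 0.333). With DESeq2 the first and second passed (adjusted p = 0.0125 and 0.000738). The first also passed with only its groups fitted (3.71 ± 0.31, adjusted p = 0.000201), so in 2 of 7 alternative settings, leave-out fits aside. Control segments 1 and 3 did not differ in Serpina16 by the main fit (adjusted p = 0.091). They did in 2 of the 7 settings, DESeq2 (-3.85 ± 1.31, 0.00871) and only those groups (-3.91 ± 0.26, 6.4e-06). The count of Serpina1f was 4.39 to 4.75 times that of Serpina16 in control segment 1, 9.72 to 11.2 times in control segment 2, 36.7 to 40.5 times in control segment 3, 12.6 to 14.2 times in ligated segment 1, 9.33 to 11.03 times in ligated segment 2, and 12.6 to 26.0 times in ligated segment 3.

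Serpinf2 was highest in control segment 2 and fell there after ligation. Control libraries of batches 3017 and 3097 held 191 and 275 CPM in segment 1, 847 and 558 CPM in segment 2, and 382 and 276 CPM in segment 3. Ligated libraries held 257 and 167 CPM in segment 1, 247 and 221 CPM in segment 2, and 171 and 201 CPM in segment 3. Control segment 2 thus stood above every other group, and both of its libraries lay above all 10 others.

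Against control segment 2, control segment 1 was lower in Serpinf2 by a log2 fold change of -1.56 ± 0.29 (adjusted p = 0.005), and ligated segment 2 by -1.57 ± 0.29 (adjusted p = 0.0213), with within-batch ratios of -1.78 and -1.33. Ligated segment 2 was at 234 ± 18.1 CPM, control segment 1 at 233 ± 59.6 CPM and control segment 2 at 703 ± 204 CPM. The ligation differences of Serpinf2 in segments 1 and 3 did not pass, at -0.17 ± 0.29 (adjusted p = 0.652) and -0.80 ± 0.29 (adjusted p = 0.25). With DESeq2 that in segment 3 passed (-0.80 ± 0.25, adjusted p = 0.0465), the 1 of 7 alternative settings with that outcome, leave-out fits aside. The sign in segment 1 turned to 0.029 when libraries were scaled by their totals alone. The fall in segment 2 ended without the control library of batch 3017 (adjusted p = 0.196), without either ligated library (0.179 and 0.12), with no low-count filter (0.0605) and with the 2 groups fitted alone (0.0513).

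**Figure D2:**
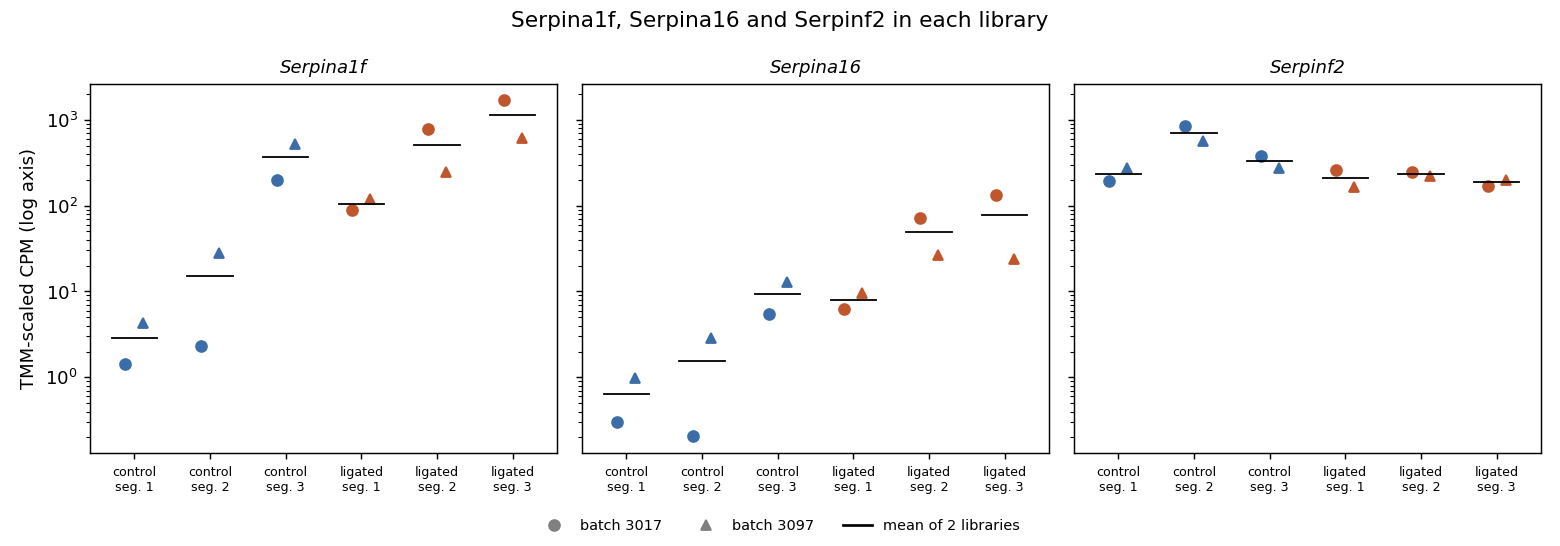
TMM-scaled CPM (logarithmic vertical axis) of Serpina1f, Serpina16 and Serpinf2 in each library, by group, with circles for batch 3017, triangles for batch 3097 and a line at the mean of the 2 libraries. Serpina1f spans 1.43 to 1677 CPM and Serpina16 0.206 to 133 CPM, while Serpinf2 stays between 167 and 847 CPM with its highest libraries in control segment 2.

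By the count of calls, ligation changed the family most in segment 1, where 16 of 24 members rose and 0 fell. Among all genes tested, 24.4% rose there and 24.4% fell, 48.7% in all. The members' median log2 fold change was 1.20 against 0.034 over all genes tested. Of the 16, 15 rose by at least 2-fold and all 16 moved up in both batches, shares not computed for all genes. The 16 were 5 of 8 clade A members, 7 of 8 clade B members, and members of other clades, Serpinf1, Serping1 and Serpini1 among them. Of the 16, 12 had at least 10 counts in all libraries, and the other 4 were Serpina3c, Serpinb10, Serpinb1a and Serpinb1b. Serpinb10 reached 10 counts in 2 libraries, those of batch 3097 in ligated segment 1 (12 counts) and ligated segment 2 (14 counts), so its place in the family rests in part on the group where it was called higher. Both ligated libraries lay above or below both control libraries for 18 members in segment 1. It was 11 members in segment 2 and 15 in segment 3, where 1 and 0 members were called. The share of all genes so separated was not computed, so the 18 cannot be set against it. When libraries were scaled by their totals alone, 6505 genes were called higher and 3130 lower in place of 4684 and 4679, and the median over all genes moved from 0.034 to 0.24 and that of the members from 1.20 to 1.41, with 16 members still called. RNA came from whole tissue, so more cells of a type and more RNA per cell cannot be told apart.

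**Figure D3:**
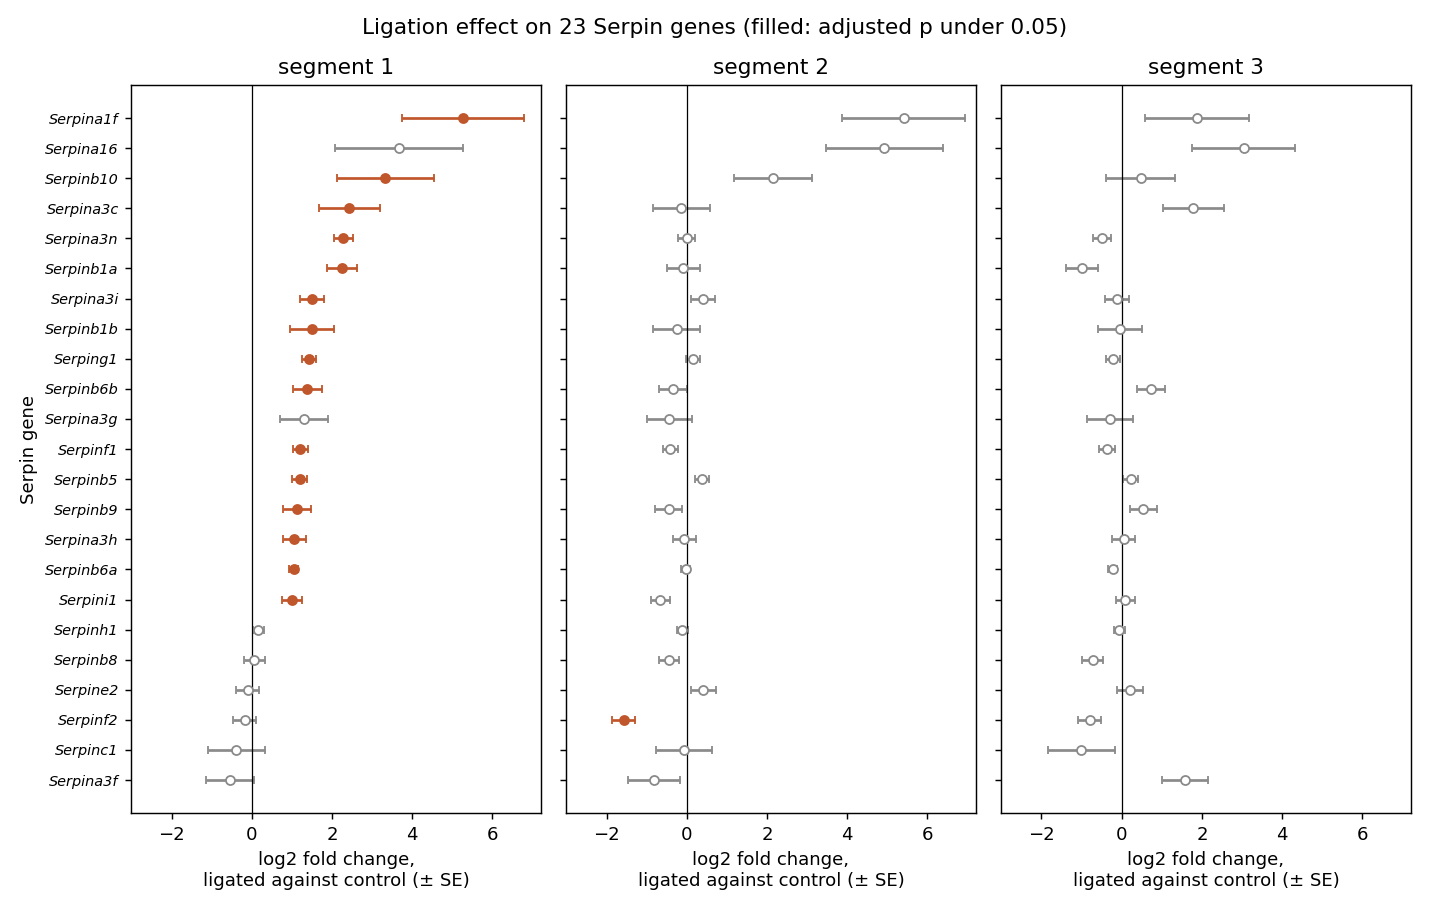
Log2 fold change of ligated against control tissue with its SE (horizontal axis) for 23 of the 24 members (vertical axis, ordered by the value in segment 1), 1 panel a segment, with filled points for adjusted p under 0.05. The filled points are 15 members in segment 1, all to the right of 0, 1 member in segment 2, Serpinf2, to the left, and 0 in segment 3.

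Of the secreted inhibitors of the complement and plasmin systems, Serping1 and Serpini1 rose in segment 1, and Serpinf2, Serpine2 and Serpinc1 were not called. Serping1 encodes C1 inhibitor, which blocks the C1r and C1s proteases of complement and contact-phase proteases (ENSMUSG00000023224, chr2:84765387-84775444). Control libraries of batches 3017 and 3097 held 14.04 and 18.2 CPM in segment 1, and ligated ones 37.1 and 49.3 CPM. The next highest of all 12 libraries was at 27.9 CPM, so both ligated segment 1 libraries stood above all others. The log2 fold change was 1.42 ± 0.18 (adjusted p = 0.000229). Within-batch ratios were 1.37 and 1.41.

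Serpine2, or protease nexin-1, which inhibits thrombin and plasminogen activators, stood at 12.3 ± 0.572 CPM in control and 11.5 ± 3.03 CPM in ligated segment 1 (-0.11 ± 0.30, adjusted p = 0.79), a difference whose sign turned to 0.098 with scaling by totals. Serpini1, neuroserpin, an inhibitor of tissue plasminogen activator, rose from 1.52 ± 0.552 to 2.92 ± 0.0564 CPM (1.00 ± 0.25, adjusted p = 0.00786), the level in the other groups being 2.75 to 4.26 CPM. Its call ended without the batch 3017 library of control or ligated segment 1 (adjusted p = 0.075 and 0.083) and without the batch term (0.0582). Antithrombin, Serpinc1, was at 0.0903 to 0.286 CPM in every group, and its exons overlap those of Zbtb37 on the other strand.

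The antichymotrypsin-like genes of the Serpina3 cluster, on chromosome 12, are a set of mouse paralogs of human SERPINA3. Serpina3n (ENSMUSG00000021091, chr12:104406729-104414329), an acute-phase inhibitor of granzyme B and other proteases, was the most abundant. It was at 3.08 and 2.65 CPM in control segment 1 and at 13.1 and 14.7 CPM in ligated segment 1, while the other groups held 5.18 to 10.6 CPM. Ligated segment 1 was thus the highest and control segment 1 the lowest of the 6 groups with no overlap, and the log2 fold change was 2.28 ± 0.23 (adjusted p = 7.05e-05). Serpina3i rose from 1.07 ± 0.554 to 2.94 ± 0.108 CPM (1.51 ± 0.30, adjusted p = 0.0025) and Serpina3h, annotated as a transcribed pseudogene, from 0.618 ± 0.0951 to 1.28 ± 0.0694 CPM (1.06 ± 0.29, adjusted p = 0.0132). The ligated segment 1 libraries of all 3 genes were above the other 10. For Serpina3h the call ended without the batch 3017 library of control or ligated segment 1 (adjusted p = 0.101 and 0.092) and with DESeq2 (0.0569). Serpina3c, Serpina3f and Serpina3g stayed below 1 CPM in every library, and of them Serpina3c was called, on 2 and 4 counts in control against 12 and 24 counts in ligated segment 1, a call that ended without either control library (adjusted p = 0.139 and 0.0755) or the batch 3097 ligated library (0.175) and with DESeq2 (0.0529). Reads that match several of these paralogs may have been split or dropped in counting, so the assignment of a rise to 1 gene of the cluster is uncertain.

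Intracellular clade B serpins shield cells from their own or neighbouring cells' proteases. Serpinb6a, an inhibitor of cathepsin G (ENSMUSG00000060147, chr13:33917918-34002794), was at 26.3 and 29.9 CPM in control segment 1 and at 57.3 and 58.6 CPM in ligated segment 1, with 48.7 to 76.2 CPM in all other libraries. Control segment 1 was the low group, and after ligation segment 1 lay within the range of the others (1.05 ± 0.12, adjusted p = 0.000101). Exons of Serpinb6a overlap Ripk1, Nqo2 and an antisense gene on the other strand, and no source used here states whether counting used strand.

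Serpinb9, the granzyme B inhibitor, rose from 37.5 ± 14.8 to 80.9 ± 15.9 CPM (1.12 ± 0.34, adjusted p = 0.0344), and its neighbour Serpinb6b from 6.34 ± 2.95 to 16.3 ± 2.56 CPM (1.39 ± 0.36, adjusted p = 0.0161). Both calls were fragile. That of Serpinb9 ended in 9 of the fits that each left out 1 library, without the batch 3017 library of control segment 1 (adjusted p = 0.165), either ligated library of segment 1 (0.0937 and 0.153), or any 1 library of control segment 3, ligated segment 2 or ligated segment 3 (0.0566 to 0.0654), and with no low-count filter (0.0847). That of Serpinb6b ended without the batch 3017 library of control segment 1 (0.0946) or either ligated library of segment 1 (0.0698 and 0.0743).

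Serpinb1a, an inhibitor of neutrophil elastase, rose from 0.275 and 0.298 CPM to 1.19 and 1.59 CPM (2.25 ± 0.37, adjusted p = 0.000931), and the other 8 libraries held at most 0.553 CPM. Its paralog Serpinb1b stood at 0.344 ± 0.0614 CPM in control and 1.05 ± 0.692 CPM in ligated segment 1 (1.498 ± 0.54, adjusted p = 0.0439). That call ended without either control library of segment 1 (adjusted p = 0.103 and 0.222), either control library of segment 3 (0.0586 and 0.0616) or the batch 3097 ligated library (0.284), without the batch term (0.0803) and with DESeq2 (0.0892). Serpinb10, annotated as a polymorphic pseudogene, was called on 1 and 0 counts in control and 2 and 12 counts in ligated segment 1, too few for a fold. Its call (adjusted p = 0.044) ended in 10 of the 12 fits without 1 library (0.0526 to 0.411), and its exons overlap those of Serpinb2. Serpinb8, an inhibitor of furin, stayed between 3.88 and 9.22 CPM in all libraries.

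Of the members that do not inhibit proteases, maspin and Serpinf1 rose and the collagen chaperone Serpinh1 did not pass the test. Serpinf1 encodes pigment epithelium-derived factor, known to restrain blood vessel growth (ENSMUSG00000000753, chr11:75409769-75422701). Its 6 control libraries held 4.26 to 5.16 CPM, ligated segment 1 held 8.53 and 13.1 CPM, and ligated segments 2 and 3 held 2.88 to 4.45 CPM. Ligated segment 1 stood apart from all others (1.21 ± 0.19, adjusted p = 0.000691). Serpinb5 rose from 5.67 ± 0.908 to 13.1 ± 3.19 CPM (1.20 ± 0.19, adjusted p = 0.000689), with 6.56 to 11.5 CPM in the other groups. Serpinh1 stood at 24.4 ± 1.71 and 27.4 ± 5.89 CPM (0.16 ± 0.13, adjusted p = 0.349), a difference that turned to -0.060 without the batch 3097 ligated library.

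**Figure D4:**
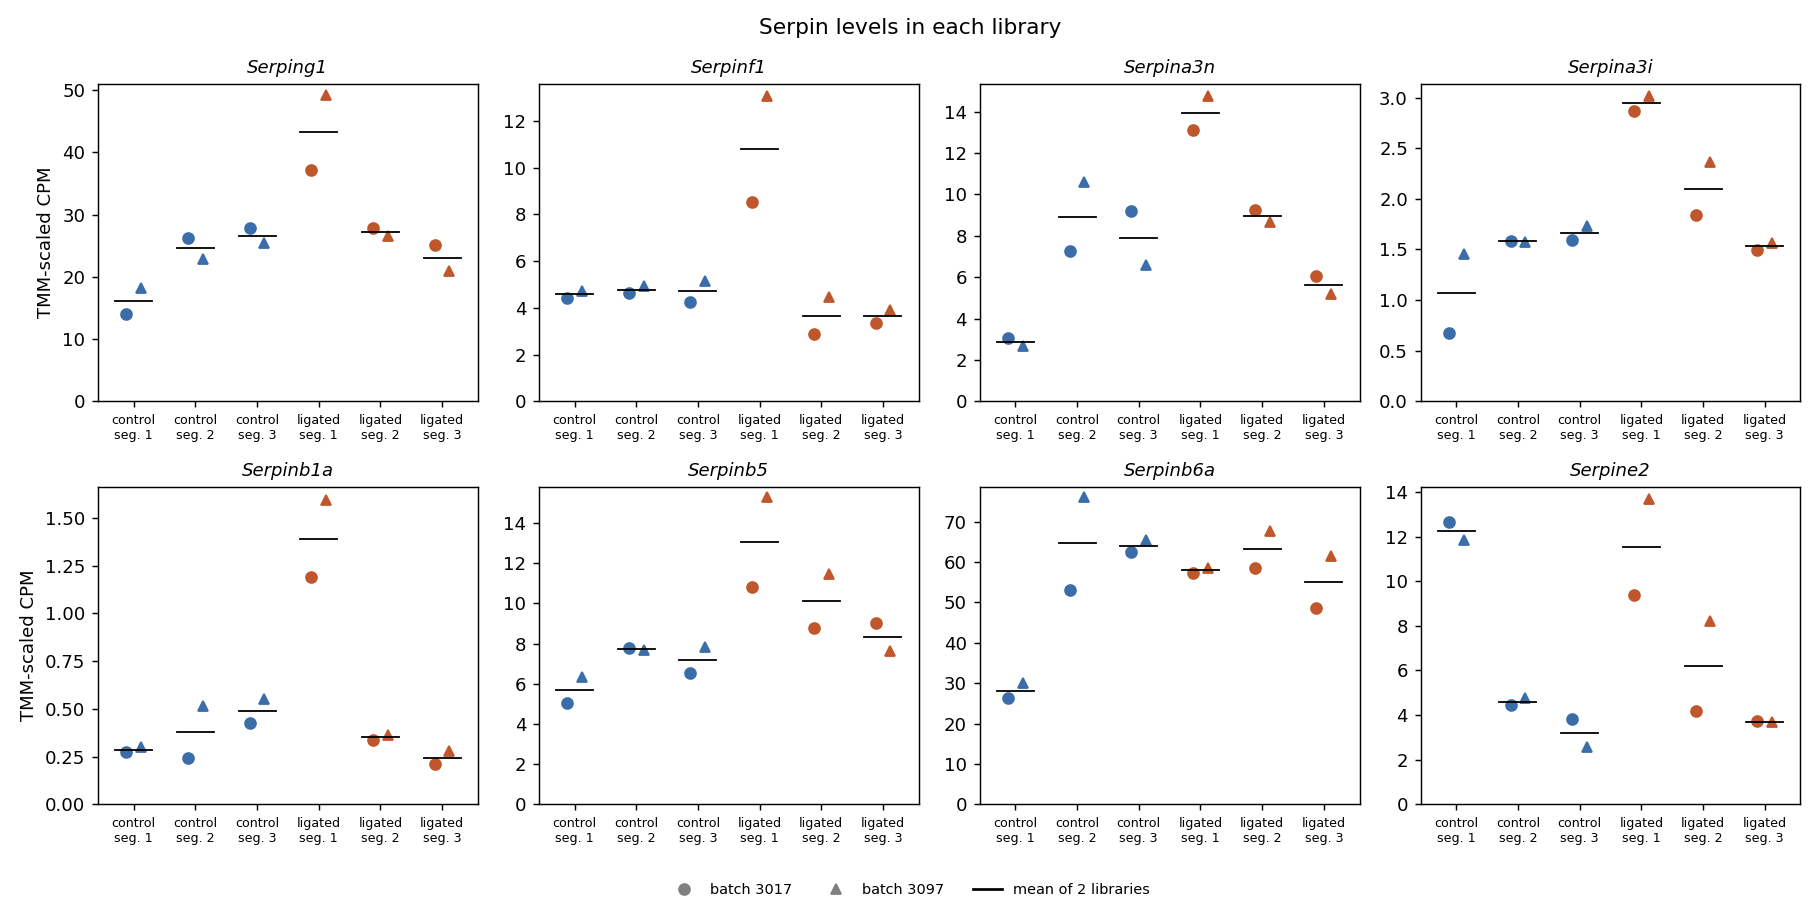
TMM-scaled CPM (vertical axes, linear from 0, scaled for each gene) of 8 Serpin members in each library, by group, with circles for batch 3017, triangles for batch 3097 and a line at the mean of the 2 libraries. Both ligated segment 1 libraries exceed the 10 others for Serping1, Serpinf1, Serpina3n, Serpina3i and Serpinb1a, whereas for Serpinb6a control segment 1 is low at 26.3 and 29.9 CPM and Serpine2 is high in segment 1 of both tissues.

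The steadiest of the 16 calls in segment 1 were those of Serpina3i, Serpina3n, Serpinb1a, Serpinb5, Serpinb6a, Serpinf1 and Serping1, 7 genes that were called in each of the 12 fits that left out 1 library. The count of members called fell to 8 without the batch 3017 control library of segment 1, to 11 without that of batch 3097, and to 10 without either ligated library. Both ligated segment 1 libraries lay above all other libraries for 7 members, among them Serpina3h, Serpina3i, Serpina3n, Serpinb1a, Serpinf1 and Serping1. The share of all genes with that order was not computed, so whether 7 members are many is not known. Shares of all genes are also not given for the steady calls or for the counts without 1 library. A loss of calls particular to the family therefore cannot be told from a general one here.

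In segment 2, 1 of 24 members was called, the fall of Serpinf2 given above, where 2.87% of all genes tested rose and 7% fell, 9.86% in all. At an unadjusted p under 0.05 there were 4, and DESeq2 called 3. Shares of all genes in this paragraph are those of edgeR at an adjusted p under 0.05, so these 2 counts have none beside them. The members' median was -0.095 against 0.00011 over all genes. With scaling by totals alone, 59.9% of the calls over all genes were higher in place of 29.1%, and the same single member was called. In segment 3, edgeR called 0 members, where 0.312% of all genes rose and 1.41% fell, 1.72% in all. There, 5 members were at an unadjusted p under 0.05 and DESeq2 called 1, again without a share of all genes. The medians were 0.0060 for the members and -0.010 for all genes.

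The test of the difference itself showed that the ligation effect was larger in segment 1 than in segment 2 for 6 members, against 10.3% of genes with a higher and 8.2% with a lower effect, 18.5% in all. They were Serpina3n (difference of log2 fold changes 2.28 ± 0.32, adjusted p = 0.00227), Serpinb1a (2.33 ± 0.56, 0.0187), Serpinb6a (1.07 ± 0.16, 0.00285), Serpinf1 (1.62 ± 0.27, 0.00448), Serping1 (1.28 ± 0.24, 0.00852) and Serpini1 (1.66 ± 0.34, 0.0103). Serpinf2 missed the threshold, at 1.40 ± 0.41 (adjusted p = 0.0546), as did Serpinb6b, at 1.74 (0.0536), and Serpinb9, at 1.57 (0.0714). Of 7 alternative settings, leave-out fits aside, Serpinf2 was called in 4, Serpinb6b in 3 and Serpinb9 in 1. DESeq2 was among them for each gene (adjusted p = 0.00105, 0.00198 and 0.00105 in that order). Against segment 3, the effect was larger in segment 1 for 7 members, where 16.1% of genes had a higher and 14.7% a lower effect, 30.7% in all, with the higher share of calls over all genes at 52.3% and at 69.0% with scaling by totals. Between segments 2 and 3, edgeR called 0 members and 0% of all genes at an adjusted p under 0.05. At an unadjusted p under 0.05 there were 2 members, and DESeq2 called 0 members, with no share of all genes given. The call of Serpinb1a between segments 1 and 2 ended without either library of control or ligated segment 1, either of ligated segment 2, or that of batch 3097 in control segment 2 (adjusted p = 0.0505 to 0.117), and with DESeq2 (0.0502). That of Serpini1 ended without the batch 3017 library of control segment 1 (0.058) or ligated segment 2 (0.0536) and without the batch term (0.0695).

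Along the control duct, 33.3% of members were called between segments 1 and 2, against 43.2% of all genes. Between segments 1 and 3 it was 29.2% of members against 51.2% of all genes. Most of the members called were lower in segment 1. Of 24 members, 7 were lower and 1 higher in segment 1 than in segment 2, where 22.1% of all genes were lower and 21.1% higher, 43.2% in all. The lower ones were Serpina3n (-1.64, adjusted p = 0.000548), Serpinb6a (-1.19, 9.07e-05), Serpini1 (-1.52, 0.00116), Serpinb6b (-1.48, 0.0156), Serpinb9 (-1.23, 0.0298), Serping1 (-0.61, 0.0205) and Serpinf2. Serpine2 was the higher one, at 12.7 and 11.9 CPM in segment 1 and 4.44 and 4.76 CPM in segment 2 (1.42 ± 0.31, adjusted p = 0.00597). The calls that held in all 12 fits without 1 library were those of Serpina3n, Serpinb6a, Serpinf2 and Serpini1. Without the batch 3017 library of control segment 1 the calls of Serpinb6b (adjusted p = 0.0995), Serpinb9 (0.158), Serping1 (0.165) and Serpine2 (0.0523) ended, without that of control segment 2 those of Serping1 (0.119) and Serpinb9 (0.0552), and the call of Serpinb9 also ended without any 1 library of control segment 3 or of the ligated groups (0.0519 to 0.0586). With only those groups fitted, the calls of Serpinb6b (0.164), Serpinb9 (0.185) and Serping1 (0.0588) ended, and without the low-count filter that of Serpinb9 (0.0794).

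Between control segments 1 and 3, 5 members were lower and 2 higher in segment 1, where 26.2% of all genes were lower and 25% higher, 51.2% in all. Besides Serpina1f, the lower ones were Serpina3n (-1.46, adjusted p = 0.000692), Serpinb6a (-1.19, 4.73e-05), Serpini1 (-1.13, 0.004) and Serping1 (-0.73, 0.0072), and the higher ones Serpine2 (1.94, 0.00097) and Serpinh1 (0.37, 0.0418). Serping1 was lost without the batch 3017 library of control segment 1 (0.0719) or 3 (0.0557). The call of Serpinh1 ended without any 1 of these 4 control libraries (0.0963 to 0.177), without the batch 3017 library of ligated segment 2 (0.0538), without the batch term (0.0621) and with scaling by totals (0.102). Between control segments 2 and 3, 3 members were at an unadjusted p under 0.05 and DESeq2 called 2, with no share of all genes given. At an adjusted p under 0.05, edgeR called 0 members, where 0.911% of all genes were higher in segment 2 and 0.874% lower, 1.79% in all. Scaling by totals changed the higher share of those calls over all genes from 51.0% to 38.6%. Serpinf2 was highest in segment 2 but its difference from segment 3 did not pass (1.09 ± 0.29, adjusted p = 0.0985), and with DESeq2 it did (0.000529).

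Serpins act on proteases, and the genes of their partners were counted over the tested genes of each list, called and uncalled alike. Over all genes tested in segment 1, 24.4% rose and 24.4% fell, 48.7% in all, with a median of 0.034. Of the genes listed, 12 of 14 complement, 14 of 21 plasminogen and coagulation, 12 of 19 granule, 11 of 17 trypsin-like, 14 of 15 receptor and 21 of 21 collagen genes were tested. Of complement C1 and contact-phase genes, 7 of 12 tested rose in segment 1 and 0 fell, with a median log2 fold change of 0.53. They included C1s2, one of the C1s proteases that C1 inhibitor blocks, from 5.87 ± 1.97 to 56.5 ± 1.88 CPM (3.31 ± 0.19, adjusted p = 1.2e-05), and C1s1, from 12.03 ± 2.75 to 24.1 ± 7.14 CPM. Reads shared between these close paralogs make their separate values uncertain. Of plasminogen and coagulation genes, 6 of 14 rose and 1 fell (median 0.32). Tissue factor, F3, rose from 10.1 ± 0.861 to 20.96 ± 0.749 CPM (1.05 ± 0.11, adjusted p = 8.2e-05), and urokinase, Plau, fell from 9.07 ± 3.60 to 3.29 ± 0.0268 CPM (-1.42 ± 0.42, adjusted p = 0.0224).

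Against the same shares over all genes, 24.4% higher and 24.4% lower, 7 of 12 granule and lysosomal proteases rose and 1 fell (median 1.14). The cysteine protease cathepsin L, Ctsl, went from 228 ± 58.4 to 2129 ± 34.4 CPM (3.26 ± 0.23, adjusted p = 1.7e-05). Of membrane and secreted trypsin-like proteases, 5 of 11 rose and 3 fell (median 0.79). Ovch2, a secreted protease of the proximal epididymis, fell to 35.2 ± 0.425 CPM (-6.48 ± 0.41, adjusted p = 4.1e-05), whereas prostasin, Prss8, rose from 36.9 ± 2.07 to 104 ± 2.61 CPM (1.496 ± 0.15, adjusted p = 9.8e-05). Of the receptors that clear serpin complexes and their relatives, 4 of 14 rose and 6 fell (median -0.39), among them Vldlr, which fell from 158 ± 27.9 to 5.45 ± 0.718 CPM (-4.84 ± 0.27, adjusted p = 1.6e-05). Of collagen synthesis genes, on whose products Serpinh1 acts, 10 of 21 rose and 5 fell (median 0.53). The prolyl hydroxylase subunit P4ha2 fell to 2.65 ± 0.0728 CPM (-7.30 ± 0.54, adjusted p = 0.00015). In segment 2, where 2.87% of all genes rose and 7% fell, the calls were 2 higher and 1 lower for plasminogen and coagulation genes, 1 and 1 for complement, 2 and 0 for granule proteases, 2 and 3 for trypsin-like proteases, 2 and 1 for receptors, and 0 and 1 for collagen synthesis. In segment 3, where 0.312% rose and 1.41% fell, the lists held 1 call among them, a trypsin-like protease that fell.

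Markers of other cell types moved in the same segment, and their part in the serpin changes was not tested. Their calls are over tested markers and stand beside 24.4% of all genes higher and 24.4% lower in segment 1, 48.7% in all. In segment 1, 6 of 7 clear and narrow cell markers rose and 0 fell, their sum going from 229 to 322 CPM in control to 1016 to 1121 CPM in ligated libraries. Of efferent duct and multiciliated cell markers, 5 of 6 rose and 0 fell (57.0 to 58.5 against 128 to 138 CPM). Of macrophage and dendritic cell markers, 2 of 9 rose and 0 fell (144 to 161 against 214 to 237 CPM), and of T and NK cell markers 2 of 5 rose (2.35 to 2.93 against 3.75 to 4.78 CPM). Of the 8 neutrophil and mast cell markers only Kit could be tested, and it rose from 34.2 ± 3.87 to 60.0 ± 8.64 CPM. The sum of the 8 was nearly all Kit, at 31.6 to 37.0 CPM in control and 54.0 to 66.2 CPM in ligated libraries. S100a8, Ly6g, Mpo, Retnlg and Cma1 were at 0 in control, and S100a9, Mpo, Retnlg, Cpa3 and Cma1 in ligated segment 1. All 7 endothelial markers fell, from 111 to 116 CPM to 31.0 to 43.3 CPM. Of 6 fibroblast markers 5 rose and Pdgfra fell, and their sum went from 597 CPM in both control libraries to 181 and 282 CPM. Of smooth muscle markers, 5 of 6 rose (274 to 342 against 437 to 558 CPM), of principal cell markers 1 of 8 rose and 4 fell (62514 to 79239 against 46493 to 51914 CPM), of basal cell markers 2 of 5 rose and 2 fell (383 to 399.96 against 329 to 471 CPM), and of blood markers 2 of 4 fell (10.04 to 15.2 against 4.98 to 11.4 CPM). Of testis somatic cell markers 1 of 5 rose and 1 fell (75.03 to 157 against 28.5 to 42.7 CPM), and of plasma protein markers 1 of 3 fell (0.894 to 2.50 against 0.308 to 2.10 CPM). All 8 germ cell markers fell in segment 1, as they did in segments 2 and 3. The 1 mesothelial marker tested was not called, and no adipocyte marker could be tested.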

How the data were processed

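Polyadenylated RNA of 12 libraries, each from 500 ng of RNA, was sequenced after directional library preparation, per the labels' protocols. The authors deposited raw counts of reads per gene, whole numbers with no normalization, in a table per sequencing batch. The submitters' processing notes name STAR 2.7.0e, Trim Galore 0.6.0, cutadapt and FastQC, and the build GRCm38 (mm10). The tool that counted reads, whether it used strand, and its annotation are each not given in the sources used here. The 55536 identifiers all matched GENCODE mouse release 21, from which symbols, coordinates and exon lengths were taken. Columns name group and batch, so libraries are named that way, without the labels' replicate numbers.

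The model of these counts was fitted in R 4.3.3 with limma 3.58.1 and edgeR 4.0.16: filterByExpr with a minimum count of 10 (19213 genes), TMM, glmQLFit with robust dispersion and two-sided glmQLFTest over all 12 libraries with group and batch as terms, and Benjamini-Hochberg adjustment over all genes tested at 0.05. The fit had 5 residual and a median of 4.55 prior degrees of freedom, and a common biological coefficient of variation of 0.153. SE is the log2 fold change over the square root of F. The design text puts 1 library of every group in each batch, so batch is the replicate block. Deviations from group means of same-batch libraries correlated at 0.0459 to 0.662 over the 15 pairs of groups, and 1798 genes and 0 members differed between batches. Within each group the libraries differed beyond sampling noise.

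Members and gene lists were chosen with earlier results of these data known. Values in full are given for members with a group mean of at least 20 CPM, or called after ligation with a log2 fold change of at least 1 in size and a group mean of at least 1 CPM, and up to 4 called genes of a list, those with the largest level, could be named. Other members were named after their values were seen. The script was tested on simulated data. Alternatives were size factors by relative log expression, library totals alone, other low-count filters, no batch term, only the groups compared, DESeq2 1.42.0 and leaving out each library. Start-site windows are RefSeq's, and 20 of 24 members had one. Amino acid sequences were not used here. The values of 1 member are not reported here, though it enters the counts and sums.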

Additional observations from a re-analysis of the deposited data

Results flagged for a closer look

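For 8 members the effect of ligation differed between segments by the interaction term of the edgeR fit, in 13 comparisons, each with the larger rise in segment 1. Against segment 2, 25% of members were called, beside 18.5% of all genes tested, 10.3% with a higher and 8.2% with a lower effect. Against segment 3 it was 29.2% of members beside 30.7% of all genes, 16.1% higher and 14.7% lower. No explanation was tested.

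Against segment 2, the difference of log2 fold changes was 2.28 for Serpina3n (adjusted p = 0.00227), 2.33 for Serpinb1a (0.0187), 1.07 for Serpinb6a (0.00285), 1.62 for Serpinf1 (0.00448), 1.28 for Serping1 (0.00852) and 1.66 for Serpini1 (0.0103). Against segment 3, it was 2.77 ± 0.32 for Serpina3n (adjusted p = 0.000452), 3.25 ± 0.55 for Serpinb1a (0.00235), 1.27 ± 0.16 for Serpinb6a (0.000641), 1.58 ± 0.27 for Serpinf1 (0.00245), 1.63 ± 0.25 for Serping1 (0.00156), 1.62 ± 0.42 for Serpina3i (0.0163) and 0.97 ± 0.26 for Serpinb5 (0.0206). Serpina3n, Serpinb6a, Serpinf1 and Serping1 were called in both comparisons in each of the 12 fits without 1 library. The call of Serpina3i ended without the batch 3017 library of control segment 1 (0.0604), control segment 3 (0.0599) or ligated segment 1 (0.0609), or the batch 3097 library of ligated segment 3 (0.0669). That of Serpinb5 ended without the batch 3017 library of control segment 1 (0.0784), either library of control segment 3 (0.057 and 0.0585), or the batch 3097 library of ligated segment 1 (0.081) or 3 (0.0813).

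Groups of 2 libraries are too small for a test of a single outlying library within a group. The fits that leave out each library, and the spread of the control segment 2 pair, are given with the results.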

How the results depend on the processing

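The number of members called for ligation in segment 1 was 16 with relative log expression factors, library totals alone or the 2 groups alone, 13 with no low-count filter or no replicate block (the fit without the batch term), 12 with DESeq2, and 12 with the stricter filter of 1 CPM in at least 4 libraries, under which 17 members were tested. Leaving out 1 library each gave 8 to 15. For ligation in segment 2 the 1 call became 0 with no low-count filter or the 2 groups alone, 3 with DESeq2, and 0 to 3 without 1 library, the higher count coming without the batch 3097 library of control segment 2. In segment 3 the count of 0 became 1 with DESeq2, and 0 to 1 without 1 library, 1 without either library of control segment 2. Control segments 1 and 2 gave 5 in place of 8 with those groups alone and 4 to 9 without 1 library. Control segments 2 and 3 gave 1 in place of 0 with those groups alone, 2 with DESeq2, and 0 to 2 without 1 library. Control segments 1 and 3 gave 4 to 9 without 1 library. Differences of the ligation effect gave 4 to 8 calls between segments 1 and 2, 5 to 8 between segments 1 and 3, and 0 to 2 between segments 2 and 3 without 1 library. No share of all genes stands beside these counts. They are therefore not set against the calls over all genes under the same setting. The cause of these moves was not tested.

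Signs turned for uncalled differences. With library totals alone, the ligation effect in segment 1 became 0.029 for Serpinf2 and 0.098 for Serpine2. Without 1 library, it ran from -0.57 to 0.30 for Serpinf2, from -0.33 to 0.11 for Serpine2 and from -0.060 to 0.37 for Serpinh1, and the difference between control segments 1 and 2 for Serpina1f ran from -3.31 to 0.35. No called difference of a member changed sign under any of these settings. Groups of 2 pools, and levels under 2 CPM for 8 members, limit the precision.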
